A study of Arabidopsis thaliana with 20 samples.

Results

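In 12 nuclear loci of *Arabidopsis thaliana* the most abundant transcript of the locus in the shoot apical meristem (SAM) was not the most abundant one in the inflorescence meristem (IM). They were selected on the measured values by a fixed rule. A locus was eligible if it had at least 2 annotated transcripts and a summed mean abundance of at least 5 TPM (abundance per transcript length, scaled so that every library has the same sum) in each tissue, which 6620 of the 10695 nuclear loci with several transcripts met. A transcript's share is its mean TPM over the summed mean TPM of its locus. The top transcript differed between tissues in 241 eligible loci, and in 12 of these (0.181% of the 6620) the share of the transcript that led in the SAM, here the SAM main transcript, also differed by at least 0.3 (30 percentage points) between tissues. The transcript that led in the IM is the IM main transcript. The 12 loci are *AT1G28710*, *AT4G22530*, *CIPK3*, *GIL1*, *CYP72A13*, *PMEAMT*, *TAR2*, *ADAP*, *AT1G56720*, *HCF208*, *AT4G31530* and *AT3G15260*.

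RNA was sequenced from 20 libraries, 5 each of Col-0 SAM, *plt3 plt7* SAM, Col-0 IM and *plt3 plt7* IM, and every library was a pool of about 50 hand-dissected meristems. Col-0 is the wild type, and *plt3 plt7* is a double mutant of the transcription factor genes *PLETHORA3* and *PLETHORA7*, whose part in phyllotaxis, the arrangement of organs around the stem, was the question of the study. SAMs came from seedlings of 7 d post germination (dpg) on nylon mesh over agar medium under fluorescent light, trimmed by hand of older leaves and of the seedling parts below. IMs came from plants of 31 to 33 dpg on soil under LED light and kept about 10 primordia, so that tissue cannot be told apart from age, substrate and light. Library totals ran from 24.8 to 114.9 M (megacounts) of estimated counts. All 7 floral markers were higher in every IM library than in every SAM library, with a summed level of 2.61 to 6.02 TPM in the SAM and 795 to 882 TPM in the IM, whereas all 5 leaf mesophyll markers were lower, with 9924 to 18067 TPM in the SAM and 1836 to 2222 TPM in the IM. The part of these cell types in the shares below was not tested, and in pooled tissue fewer cells of a type and less RNA per cell cannot be told apart.

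A plant gene can yield several transcripts by starting transcription at another promoter, by splicing the precursor differently, or by ending it at another polyadenylation site. A changed start can alter the leader that ribosomes scan or the first amino acids of the protein, and a changed 3′ end can bring in other regulatory sequence. Retained introns, common in plants, often place a stop codon early or shift the start of the reading frame, and such transcripts can be degraded by nonsense-mediated decay (NMD).

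The main transcripts of all 12 loci differed in at least 1 intron, and the 21 introns found in only 1 transcript of a pair all began with GT and ended with AG. Exons and ends of different extent separate the reads of most pairs, and so does the exon sequence across such an intron, which is printed here for 5 of the 7 loci in which it lies in the coding sequence. Sequences are 5′ to 3′ on the strand of the gene, were read from the TAIR10.1 assembly, and span 15 bases on each side. Capitals mark the bases after the exon border, which belong to the next exon in a spliced transcript and to the intron in one that reads through it.
GIL1 SAM main (AT5G58960.1, across the intron chr5:23805846-23806643, plus strand): tcccaggaatcacagCAAAAAGAAAAAGAG
CIPK3 IM main (AT2G26980.4, across chr2:11518210-11518400, minus strand): caacaaaaaattaagAGAAATGAATCGGAG
PMEAMT IM main (AT1G48600.2, across chr1:17966090-17966415, plus strand): tggcgacaccatacaAGGAAGAGAGAGATA
CYP72A13 SAM main, spliced (AT3G14660.1, across chr3:4925557-4925652, plus strand): cttgagaagatcaaaAATATGGTACCTGCG
CYP72A13 IM main, intron kept (AT3G14660.2, same position): cttgagaagatcaaaGTTTATAAGCTTTCT
AT4G31530 SAM main (AT4G31530.2, across chr4:15283875-15283998, plus strand): gaacaaagtggaaatGGGGATGGTCCAGGA
AT4G31530 IM main (AT4G31530.1, across chr4:15283833-15283998, plus strand): atcaattcagtaaagGGGGATGGTCCAGGA
The *AT4G31530* pair shares the acceptor, as the equal capitals show, and differs in the donor. The *CYP72A13* pair shares the exon before the border and parts at the capitals.

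The annotated models fell into changed starts, changed 3′ ends and internal splicing. Start sites lay more than 20 nt apart in 7 of 12 pairs (58.3%, against 62.9% of the main pairs of 6593 eligible loci), and 3′ ends in 6 of 12 (50.0%, against 55.7%). The coding sequence was the same in 5 of 12 pairs (41.7%, against 32.3%). An exon of a gene on the other strand overlapped the locus in 6 of 12 (50.0%, against 25.9%). The closer comparison is with the 229 other loci whose top transcript differed between tissues. There start sites differed in 72.1% and 3′ ends in 59.0%, and a gene on the other strand overlapped in 25.3%. The coding sequence was the same in 42.8% of them, so the 12 pairs were not higher in this than those loci. The shares of the 12 loci are descriptions, and the rule did not use them.

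**Figure D1:**
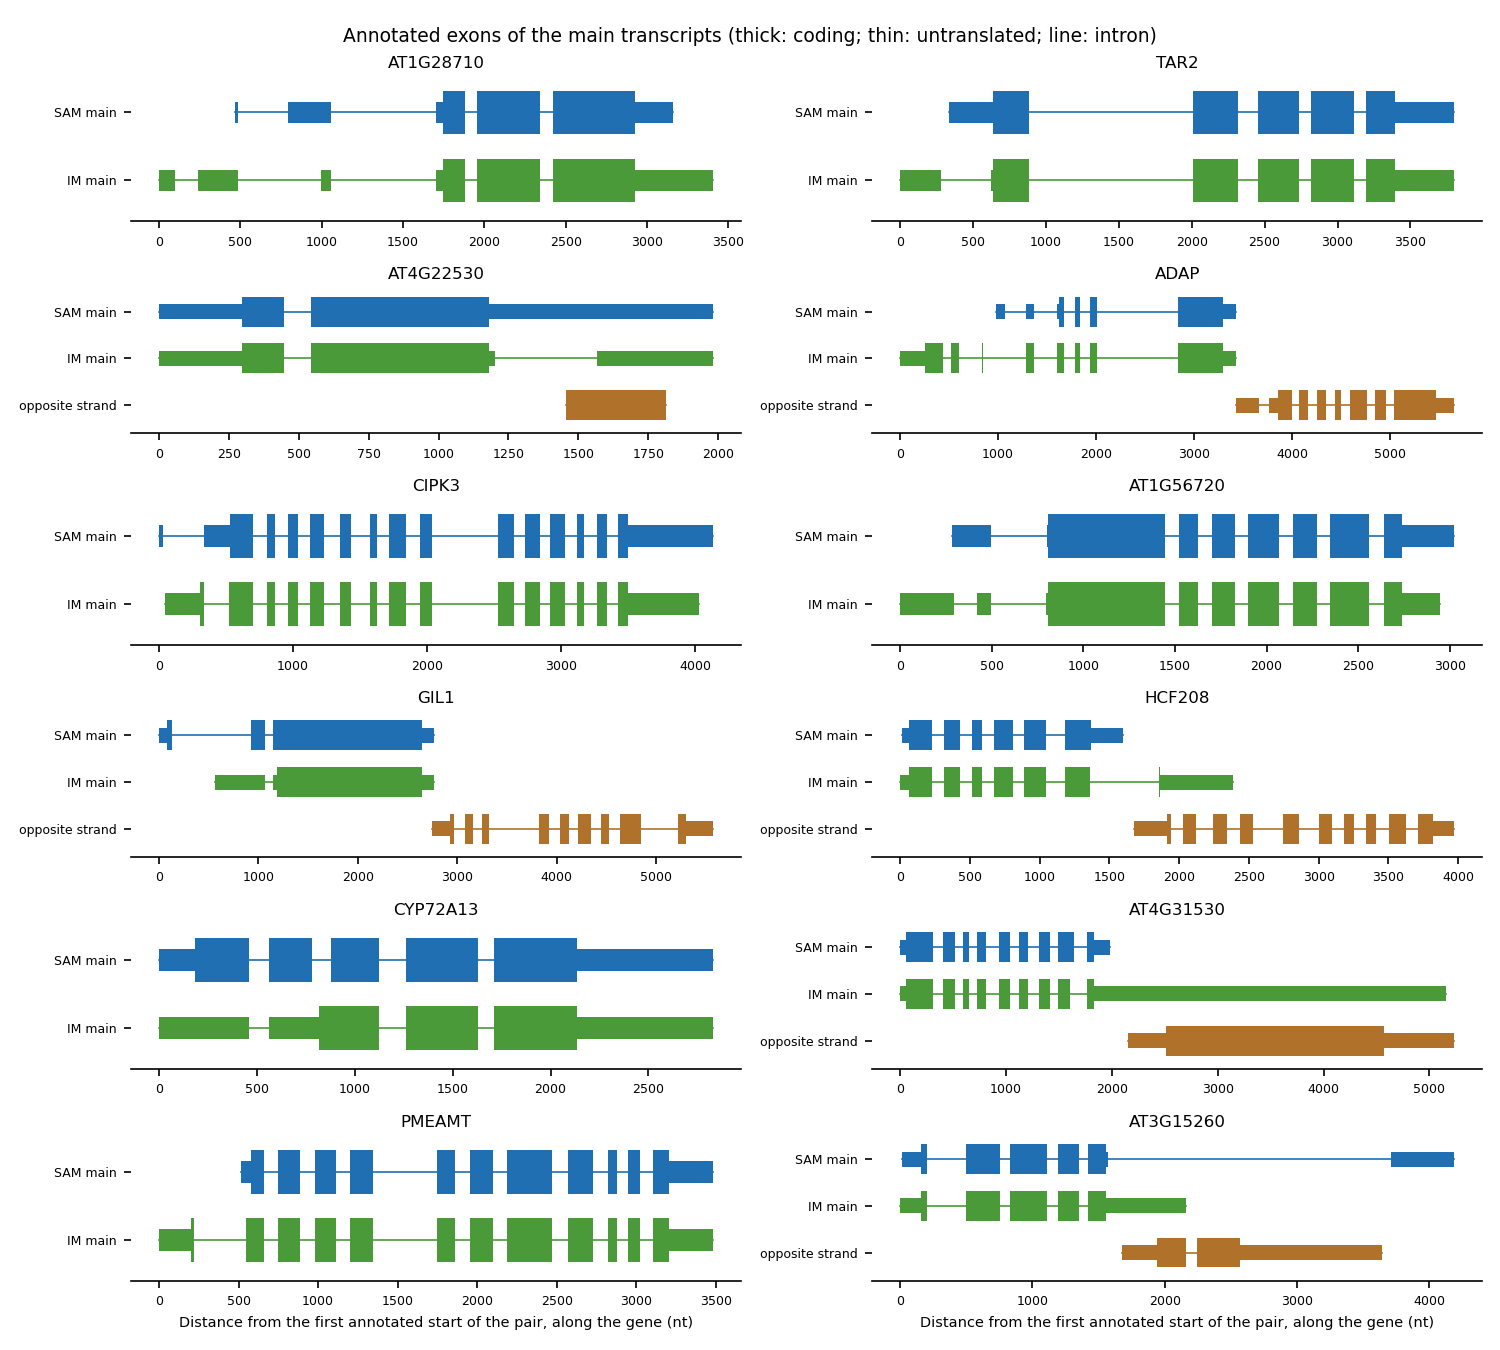
Annotated exons of the SAM main (blue) and IM main (green) transcript of each locus and of an overlapping gene on the other strand (brown), against distance in nt from the first annotated start of the pair along the gene. Thick boxes are coding, thin boxes untranslated and lines introns, and 6 of the 12 loci have a brown model. A brown model is 1 transcript of the gene. That of *ADAP* (AT1G16070.2 of *TLP8*) lies from 3429 nt on, past the end of the pair at 3426 nt.

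The share of the SAM main transcript was higher in all 10 SAM libraries than in all 10 IM libraries at each of the 12 loci, as held for 1.69% of eligible loci in either direction. Since the shares of the tissues chose the loci, this is given with no test, and nothing is read from it. The median difference over all eligible loci was 0.0175 as a share, the 95th percentile was 0.114, and 16 loci reached 0.3. The SAM main transcript was first in all 10 SAM libraries at 9 loci, and the IM main transcript was first in all 10 IM libraries at 5. Below, shares are means of the libraries' own shares ± SD (n = 10 per tissue), whereas the difference that the rule used is of shares of mean TPM and is called the difference by the rule.

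**Figure D2:**
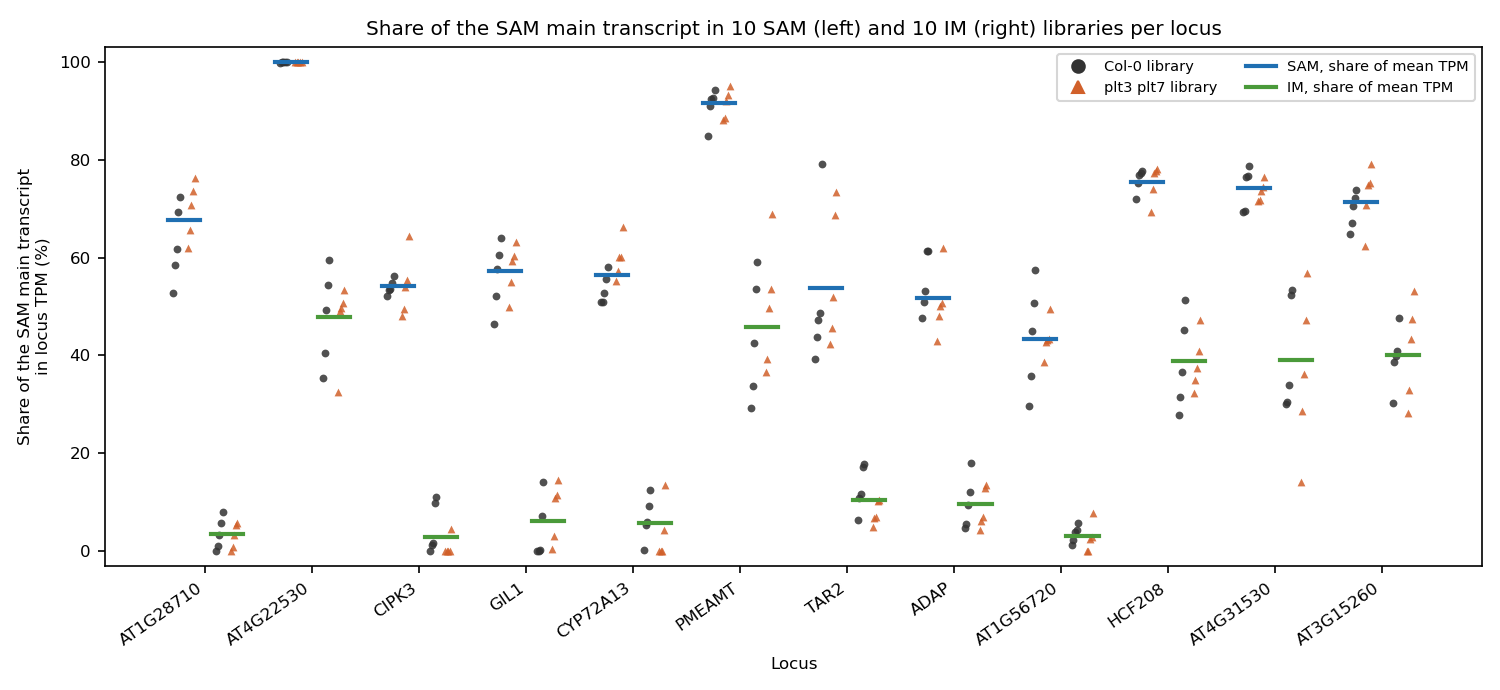
Share of the SAM main transcript in locus TPM (%), 1 point per library, for 12 loci in the order of the difference by the rule, with SAM libraries on the left of each locus and IM libraries on the right. Circles are Col-0, triangles *plt3 plt7*, and bars the share of mean TPM of the tissue. At *CIPK3* the SAM libraries sit between 48.1% and 64.4% and the IM libraries between 0% and 11.1%.

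*AT1G28710* (chr1:10086366-10089772, minus strand), annotated as a nucleotide-diphospho-sugar transferase, had the largest difference by the rule of the 12, 64.2 points. Its main transcripts encode the same protein of 340 amino acids and differ in the leader, where the IM main transcript starts 465 nt further upstream and has 2 introns of its own, and by 250 nt in the 3′ end. In Col-0 SAM the 5 libraries gave AT1G28710.4 shares of 52.7%, 72.4%, 69.3%, 58.5% and 61.8%, and in *plt3 plt7* SAM 65.7%, 61.9%, 70.7%, 73.6% and 76.3%. In Col-0 IM they gave 5.86%, 7.998%, 3.26%, 0% and 1.12%, and in *plt3 plt7* IM 5.70%, 0%, 5.33%, 3.39% and 0.813%. The transcript thus led every SAM library and was close to or at 0 in every IM library, with no overlap. Its level was 33.2 ± 11.1 TPM in the SAM and 0.359 ± 0.329 TPM in the IM (SD, n = 10). AT1G28710.3 was at 9.08 ± 0.980 TPM in the SAM and 6.86 ± 1.1 TPM in the IM, so that the IM main transcript led the IM without being higher there.

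The same held at *CYP72A13* (chr3:4924777-4927607, plus strand), a cytochrome P450 gene, where the difference by the rule was 50.8 points. The IM main transcript AT3G14660.2 keeps the second intron of 96 nt, and its annotated protein is 366 amino acids long against 512 for AT3G14660.1, with the last 347 in common. The spliced AT3G14660.1 ran from 13.1 to 17.1 TPM in the SAM (median 15.4) and from 0 to 1.49 TPM in the IM (median 0.433). The intron-keeping AT3G14660.2 ran from 6.43 to 11.8 TPM in the SAM (median 8.60) and from 4.51 to 6.98 TPM in the IM (median 5.91). AT3G14660.1 was therefore scarce in every IM library, with a share of 56.7 ± 4.73% in the SAM and 5.10 ± 5.21% in the IM. Its 30 words (runs of 31 bases) that are not in AT3G14660.2 are all in the third transcript of the locus, AT3G14660.3, which is spliced at the same place and was at 2.80 ± 0.484 and 3.03 ± 0.496 TPM. No word is its own, and 185 words of the locus are also in the neighbouring *CYP72A11*, so the division of reads is uncertain here.

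*CIPK3* (chr2:11514600-11518734, minus strand) encodes a protein kinase that calcineurin B-like calcium sensors bind, and its difference by the rule was 51.2 points. AT2G26980.4 begins its protein in an exon that AT2G26980.3 lacks, with 451 against 441 amino acids. In Col-0 SAM the share of AT2G26980.3 was 53.5%, 54.7%, 52.1%, 56.2% and 53.4%. In *plt3 plt7* SAM it was 48.1%, 49.4%, 55.4%, 53.9% and 64.4%, so that it was the larger transcript of the pair in all 10 SAM libraries. The IM libraries ran from 0% to 11.1% with a median of 0.669%, and AT2G26980.4 took 85.3 ± 4.42% of the locus there against 30.8 ± 5.45% in the SAM. In TPM, AT2G26980.4 was at 7.38 ± 1.12 in the SAM and 10.6 ± 0.822 in the IM, while the whole locus went from 24.2 ± 2.63 to 12.4 ± 0.795.

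*GIL1* (GRAVITROPIC IN THE LIGHT 1, chr5:23805717-23808478, plus strand), needed for hypocotyls to lose their gravity response in light, differed by 51.0 points by the rule. AT5G58960.1 has a first coding exon of its own and encodes 559 amino acids, whereas AT5G58960.2 starts 558 nt further downstream and encodes the last 484 of them. The level of AT5G58960.1 ran from 20.7 to 34.4 TPM in the SAM (median 24.6) and from 0 to 4.94 TPM in the IM (median 1.68). AT5G58960.2 ran from 14.2 to 21.7 TPM in the SAM (median 16.3) and from 20.3 to 28.5 TPM in the IM (median 24.2). The long form was thus lower in every IM library while the short form overlapped between tissues, and the third transcript made up 5.59 ± 2.44% of the SAM and 20.6 ± 8.06% of the IM signal.

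*PMEAMT* (chr1:17965871-17969354, plus strand) encodes a phosphomethylethanolamine N-methyltransferase, an enzyme of phosphocholine synthesis, and differed by 45.6 points by the rule. AT1G48600.2 starts 512 nt upstream of AT1G48600.1 and adds an N-terminus, giving 491 against 475 amino acids. The share of AT1G48600.1 was 84.8% or more in the SAM (median 92.2%) and ran from 29.3% to 68.9% in the IM (median 46.1%). The tissues did not overlap, but the IM libraries were widely spread, and AT1G48600.2 was first in only 6 of 10 of them. AT1G48600.1 was at 46.5 ± 7.28 TPM in the SAM and 7.18 ± 1.58 TPM in the IM, and AT1G48600.2 at 4.34 ± 1.12 and 8.49 ± 2.70 TPM. AT1G48600.1 has 33 words that AT1G48600.2 lacks, against 219 the other way, so little sequence marks AT1G48600.1.

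*TAR2* (TRYPTOPHAN AMINOTRANSFERASE RELATED 2, chr4:12727531-12731331, minus strand) acts in the synthesis of auxin, the hormone that positions new organs at the meristem. Its pair encodes the same 440 amino acids and differs in the leader, where AT4G24670.2 starts 336 nt further upstream and splices out the place at which AT4G24670.1 starts. The shares differed by 43.2 points by the rule. In Col-0 SAM the share of AT4G24670.1 was 79.1%, 39.3%, 47.3%, 48.6% and 43.8%, and in *plt3 plt7* SAM 45.7%, 73.4%, 68.8%, 42.3% and 52.0%. The SAM libraries were split, with AT4G24670.1 first in only 4 of 10. In the IM the share was 10.9%, 11.7%, 17.2%, 6.49% and 17.8% in Col-0 and 4.88%, 10.3%, 10.5%, 7.01% and 6.87% in *plt3 plt7*. The difference at *TAR2* lay mostly in the other transcript, for AT4G24670.2 was at 5.09 ± 1.66 TPM in the SAM and 28.3 ± 2.39 TPM in the IM, 5.57-fold higher, and AT4G24670.1 at 5.91 ± 1.47 and 3.32 ± 1.49 TPM. With the median of the libraries' shares in place of the share of mean TPM, AT4G24670.2 was the top transcript in both tissues and *TAR2* was no longer selected.

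*ADAP* (chr1:5508311-5511736, plus strand), which encodes a protein with 2 AP2 domains, the DNA-binding fold that PLETHORA proteins also have, is annotated with 7 transcripts. AT1G16060.2 starts 981 nt downstream of AT1G16060.1 and encodes 211 amino acids, all of them the end of the 345 of AT1G16060.1. The share of AT1G16060.2 was 52.8 ± 6.57% in the SAM and 9.41 ± 4.57% in the IM, a difference of 42.0 points by the rule. AT1G16060.1 took 18.5 ± 5.16% and 44.1 ± 6.84%, and AT1G16060.6 took 4.50 ± 5.60% and 31.3 ± 13.9%, so that 2 transcripts shared the IM signal. Only 34 words of AT1G16060.2 and 35 of AT1G16060.1 are in no other transcript of the locus, so the division of reads is uncertain here too. The total overlapped between tissues at this locus alone among the 12, with 8.33 to 17.7 TPM in the SAM and 16.7 to 29.6 TPM in the IM. *TLP8*, on the other strand, shares 562 words with the locus but only 1 that separates the pair, and was at 6.67 ± 1.34 TPM in the SAM and 16.6 ± 2.59 TPM in the IM.

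*AT1G56720* (chr1:21263344-21266469, minus strand), annotated as a protein kinase, differed by 40.2 points by the rule, again between leaders of 1 coding sequence of 492 amino acids. AT1G56720.3 ran from 4.49 to 7.75 TPM in the SAM (median 6.28) and from 0 to 1.56 TPM in the IM (median 0.533). Its share in the SAM ran from 29.8% to 57.4%, and it was first in only 6 of 10 SAM libraries. AT1G56720.2 ran from 3.04 to 6.09 TPM in the SAM (median 5.06) and from 9.14 to 12.1 TPM in the IM (median 11.3), and its level did not overlap between tissues. Its share did overlap, at 22.8% to 43.3% in the SAM and 41.8% to 63.7% in the IM. Only 28 words of AT1G56720.2 are in no other transcript of the locus, against 136 of AT1G56720.3, so the division of reads is uncertain. The share of the IM main transcript did not overlap at the other 11 loci, as held for 1.68% of eligible loci, and since the tissues' shares chose the loci nothing is read from this.

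At the other 4 loci a gene on the other strand covers part of the sequence that separates the pair. The library kit was strand-specific, but no strand option for the read assignment is given, so reads of these genes could have been assigned to the switching locus. The part of such reads was not tested, and the shares at these loci are uncertain for that reason.

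*AT4G22530* (chr4:11858444-11860426, minus strand), annotated as an S-adenosylmethionine-dependent methyltransferase, differed by 52.0 points by the rule and had the largest difference in locus total of the 12, 17.5-fold. AT4G22530.2 splices out 366 nt of the 3′ untranslated region that AT4G22530.1 keeps. In the 10 SAM libraries AT4G22530.1 took 99.8% to 100% of the locus, at 52.3 to 178 TPM (median 95.02). In the IM its share was 40.5%, 49.4%, 35.5%, 59.6% and 54.4% in Col-0 and 49.0%, 50.8%, 53.4%, 49.6% and 32.6% in *plt3 plt7*. The 2 forms were thus near equal in the IM, where the whole locus stood at only 5.74 ± 0.621 TPM and AT4G22530.2 was first in 6 of 10 libraries. The lipid-transfer-like gene *AT4G22520* lies wholly within the transcript on the other strand, and all 327 of its 31-base words are also in *AT4G22530*. It was assigned 31.8 to 151 TPM in the SAM libraries and was listed at 0 in all 10 IM libraries. With estimated counts in place of TPM the longer AT4G22530.1 stayed first in the IM and the locus was not selected.

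*AT3G15260* (chr3:5138684-5142873, plus strand) encodes a protein phosphatase of the 2C family and was the locus just inside the limit, with 31.2 points by the rule. Its pair encodes the same 289 amino acids and differs at the 3′ end, where AT3G15260.2 splices over 2141 nt to a distal exon. AT3G15260.2 was at 12.5 ± 2.13 TPM in the SAM and 10.6 ± 2.08 TPM in the IM, and AT3G15260.1 at 5.01 ± 0.769 and 15.8 ± 2.74 TPM. The switch therefore lay in the higher level of AT3G15260.1, whose 3′ end runs into *SPL5* on the other strand. *SPL5* encodes a transcription factor of the phase change to flowering, and its level was 0.103 to 0.319 TPM in the SAM and 32.1 to 44.1 TPM in the IM. Of the 598 words that separate AT3G15260.1 from its partner, 447 (74.7%) were also in *SPL5*. Without *plt3 plt7* IM replicate 3 the difference was -29.6 points (IM minus SAM), short of the limit.

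*AT4G31530* (chr4:15282230-15287390, plus strand), annotated as a protein with an NAD(P)-binding Rossmann fold, was the next locus inside the limit, with 35.1 points. The IM main transcript AT4G31530.1 ends 3174 nt further downstream, and 2976 of its 3203 separating words (92.9%) were also in *EXO70G1*, an exocyst subunit gene on the other strand. *EXO70G1* was assigned at most 0.367 TPM in a SAM library and between 2.50e-05 and 5.64 TPM in the IM. The share of AT4G31530.2 ran from 69.4% to 78.7% in the SAM (median 74.0%) and from 14.1% to 56.8% in the IM (median 35.1%). AT4G31530.1 was nearly level between tissues, at 8.80 ± 0.671 and 9.45 ± 1.69 TPM, and AT4G31530.2 was at 25.2 ± 4.08 and 6.04 ± 2.45 TPM. With estimated counts the difference was -27.3 points and the locus was not selected.

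*HCF208* (chr5:21171634-21174019, minus strand) is named for a high chlorophyll fluorescence mutant and acts in assembly of the chloroplast cytochrome b6f complex. Both transcripts encode the same 275 amino acids, and AT5G52110.2 adds an intron and a downstream exon, with its end 787 nt further on. AT5G52110.1 was at 17.0 ± 0.962 TPM in the SAM and 5.31 ± 1.40 TPM in the IM, while AT5G52110.2 was at 5.51 ± 0.880 and 8.36 ± 1.02 TPM, a difference of 36.6 points by the rule. Of the 543 words that separate AT5G52110.2, 197 (36.3%) were also in *CRR1* on the other strand, a gene of the chloroplast NDH complex, which was lower in the IM (15.5 to 23.3 TPM) than in the SAM (35.9 to 52.8 TPM). Just outside the limit were *SFH3*, with 29.1 points, and *CRF10*, with 26.4 points.

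**Figure D3:**
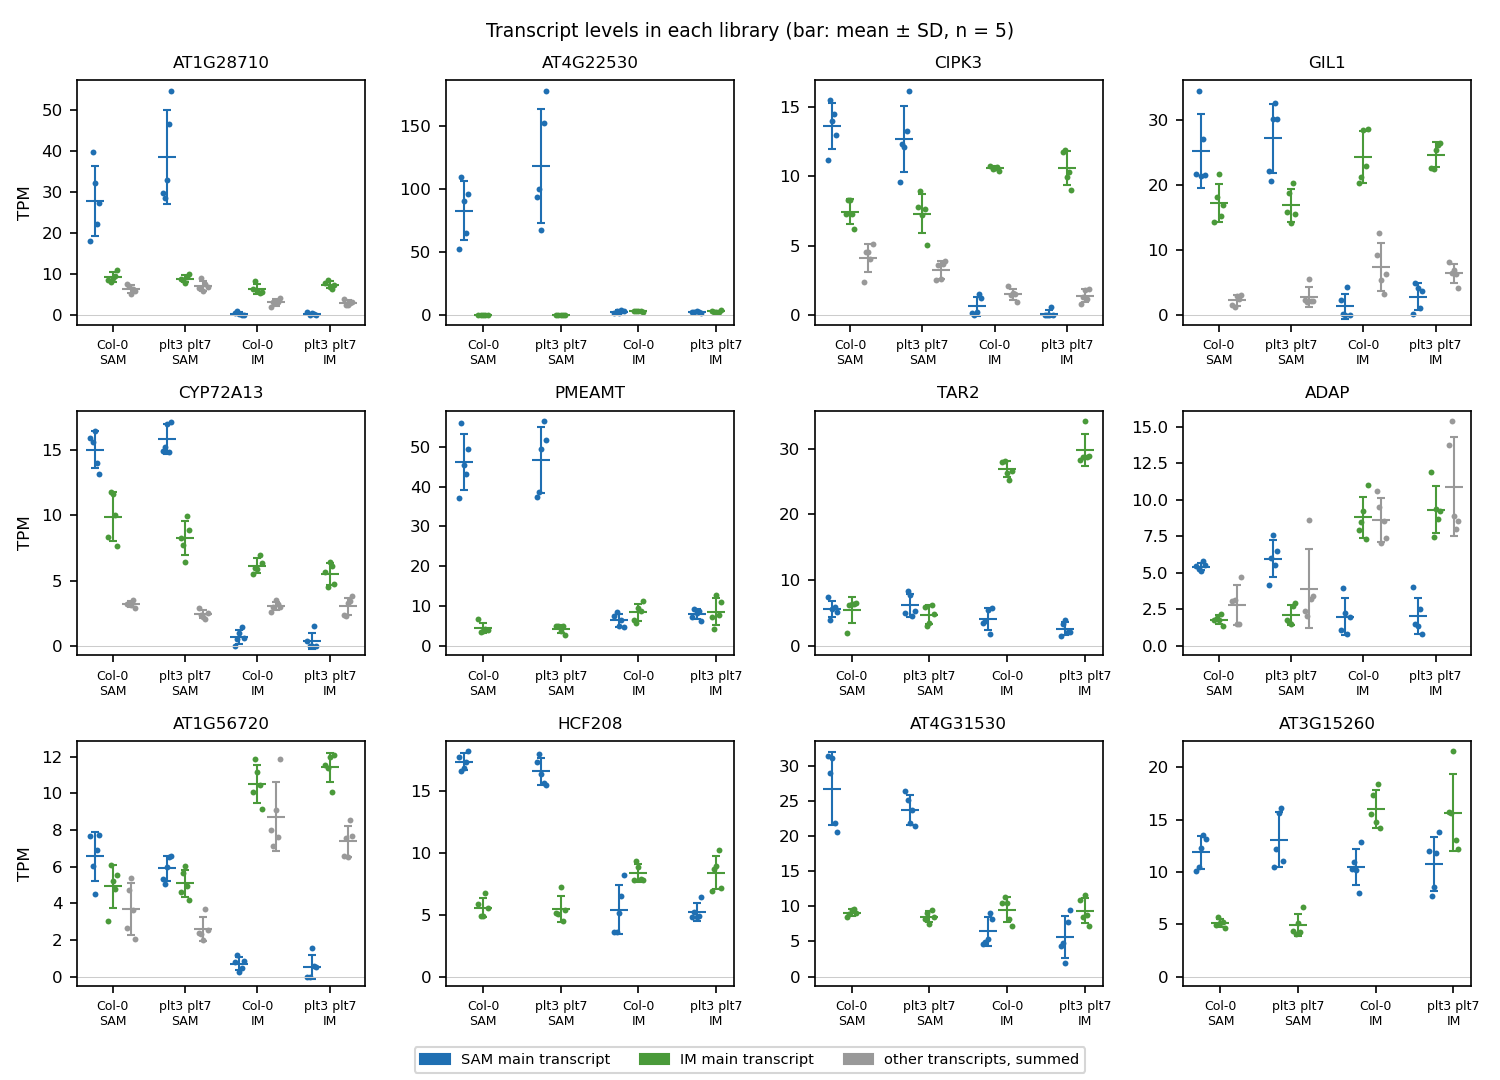
Level in TPM of the SAM main transcript (blue), the IM main transcript (green) and the sum of the other transcripts of the locus (grey) in each library of the 4 groups, with mean ± SD (n = 5), on axes that differ between loci. The SAM main transcript of *AT1G28710* lies between 18.01 and 54.6 TPM in the SAM and at or below 0.988 TPM in the IM.

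By mean TPM, most loci had both a lower level of the SAM main transcript and a higher level of the IM main transcript in the IM. Mean TPM of the SAM main transcript was lower in the IM at 12 of 12 loci, by more than 2-fold at 10, and that of the IM main transcript higher at 10 of 12, by more than 2-fold at 5. The median locus of 13148 was 1.28-fold higher in TPM in the IM (0.36 on the log2 scale). Relative to that shift 12 and 9 loci kept these directions, with *AT4G31530* now lower. Library by library, the TPM of the SAM main transcript did not overlap between tissues at 10 of 12 loci. That of the IM main transcript did not overlap at only 6 of 12. The locus total was lower in the IM at 8 loci and higher at 4 (*TAR2*, *ADAP*, *AT1G56720* and *AT3G15260*) on both scales, against 25.3% of eligible loci lower in TPM. It differed by more than 2-fold at 6 of 12 (50.0%), against 13.2% of eligible loci, and the tissues did not overlap at 11 of 12, against 56.4%. The minimum of 5 TPM was set on the total, and the tissue contrast chose the loci, so these counts are descriptions. The directions and overlaps of the main transcripts follow in part from that choice and were not counted over all eligible loci.

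The choice was also made within each genotype and read in the other, whose libraries had no part in it. In the 5 SAM and 5 IM libraries of Col-0 alone the rule selected 15 loci, the 12 above among them. In *plt3 plt7*, 12 of the 15 had the same top transcripts in both tissues, and 12 had SAM and IM shares that did not overlap, against 4.73% of eligible loci. All 15 differed in the same direction, by 3.70 to 67.4 points. In *plt3 plt7* alone the rule selected 17 loci, of which 14 had the same top transcripts in Col-0, 12 did not overlap, against 7.02% of eligible loci, and 16 had the same direction. The 3 loci selected in Col-0 only differed by -20.7 to -3.70 points (IM minus SAM) in *plt3 plt7*. Of the 5 selected in *plt3 plt7* only, 4 differed by -14.6 to -4.33 points in Col-0, and *VHP2;2*, a proton pyrophosphatase gene named after its values were seen, differed by -38.3 points in *plt3 plt7* and by 20.5 points in Col-0.

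Whether *PLT3* and *PLT7* affected which transcript was used was tested with limma on the log2 ratio of the SAM main transcript to the other transcripts of its locus (0.5 TPM added to each), with harvest group as a covariate and Benjamini-Hochberg adjustment over 6620 loci. All 12 loci had the same main transcripts in Col-0 and in *plt3 plt7*. Since the libraries of both genotypes together chose the loci, nothing is read from this. At an adjusted p-value under 0.1, 0 of 12 loci were called in the SAM, 0 of 12 in the IM and 0 of 12 for the interaction of genotype and tissue, against 0% of eligible loci in each. At an unadjusted p-value under 0.05, 0 of the 12 stood out in any of the 3 tests, and 307, 312 and 303 of all eligible loci did (4.64%, 4.71% and 4.58%).

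Every Col-0 SAM library had a longer mean RNA fragment than every *plt3 plt7* SAM library. In the SAM tests of share and of level, genotype therefore cannot be told apart from fragment length. The intervals of the genotype difference varied in width between loci. In the SAM the smallest p-value of the 12 was that of *AT4G22530* (log2 ratio higher by 0.61 ± 0.31 in *plt3 plt7*, SE; 95% interval -0.11 to 1.32; limma adjusted p = 0.958). In the IM it was that of *TAR2* (-0.66 ± 0.31, interval -1.37 to 0.05, limma adjusted p = 0.996), and for the interaction that of *CYP72A13* (-0.79 ± 0.47, interval -1.79 to 0.21, limma adjusted p = 0.983). The tightest interval in the SAM was that of *AT4G31530*, -0.41 to 0.37, and the widest in the IM that of *GIL1*, -0.93 to 3.24. By the rule's measure the tissue difference was 37.7 points in Col-0 and 48.7 points in *plt3 plt7* at *TAR2*, the largest gap of the 12. At *HCF208* it was 36.4 and 36.8 points.

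**Figure D4:**
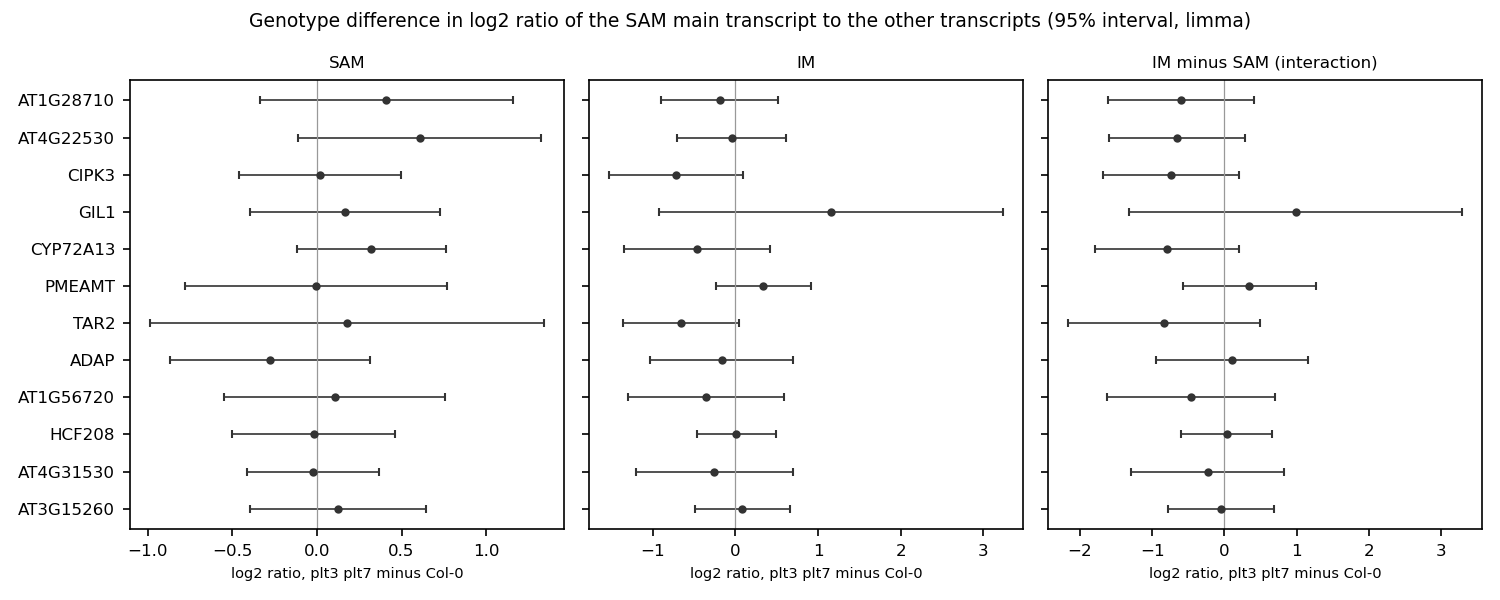
Difference between *plt3 plt7* and Col-0 in the log2 ratio of the SAM main transcript to the other transcripts of its locus, with 95% interval (limma), in the SAM, in the IM and for the interaction. All 36 intervals include 0.

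The level of the whole locus was compared between genotypes with DESeq2 on summed estimated counts, where a call needs an adjusted p-value under 0.1 and a difference above 25%. None of the 12 loci was called in the SAM (0 of 12, against 0.453% of all genes tested) or in the IM (0 of 12, against 1.53%), and edgeR likewise called 0 in each. At an unadjusted p-value under 0.05 there was 1 of 12 in the SAM and 0 of 12 in the IM, against 6.96% and 10.2% of all genes tested. The 1 locus was *AT1G28710*, where the Col-0 libraries had 1909 ± 215 normalised counts and those of *plt3 plt7* 2393 ± 381 (log2 difference 0.33 ± 0.11, SE, n = 5; DESeq2 adjusted p = 0.280). Without Col-0 SAM replicate 2 it was called (0.39, DESeq2 adjusted p = 0.0228), and the calls over all genes went from 87 to 166. In the IM the smallest p-value of the 12 was that of *CYP72A13*, at 859 ± 118 and 764 ± 108 normalised counts (-0.17 ± 0.09, DESeq2 adjusted p = 0.523).

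Long and short RNA fragments resolve 3′ ends and leaders differently, and libraries differed in mean fragment length. It ran from 346 to 432 nt in the SAM (median 410 nt) and from 287 to 438 nt in the IM (median 362 nt). In the SAM the genotypes did not overlap, with 413 to 432 nt in Col-0 and 346 to 407 nt in *plt3 plt7*. Genotype and fragment length therefore cannot be told apart in the SAM. The relation of fragment length to the share of the SAM main transcript was computed in each tissue with the genotypes pooled, 24 relations in all. At *AT4G31530* in the IM the share was higher in libraries with longer fragments (Pearson's r = 0.82, permutation p = 0.00331, adjusted p = 0.0794; Spearman's rho = 0.93, permutation p = 0.00039, adjusted p = 0.00936; n = 10). Without the 2 libraries farthest from the median length r was 0.54. At *AT1G28710* in the IM rho was -0.86 (permutation p = 0.00210, adjusted p = 0.0252) and r was -0.72 (permutation p = 0.0152, adjusted p = 0.176), within shares of 0% to 7.998%, and r was -0.81 without those libraries. No other relation had an adjusted p-value under 0.1. In the 10 SAM and 8 IM libraries whose fragment length lay in the range of both tissues the rule selected 12 loci, the same 12, with a difference of -34.8 points at *AT4G31530*. Lengths were not matched between tissues within this range, so the part of fragment length in the tissue difference was not tested.

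**Figure D5:**
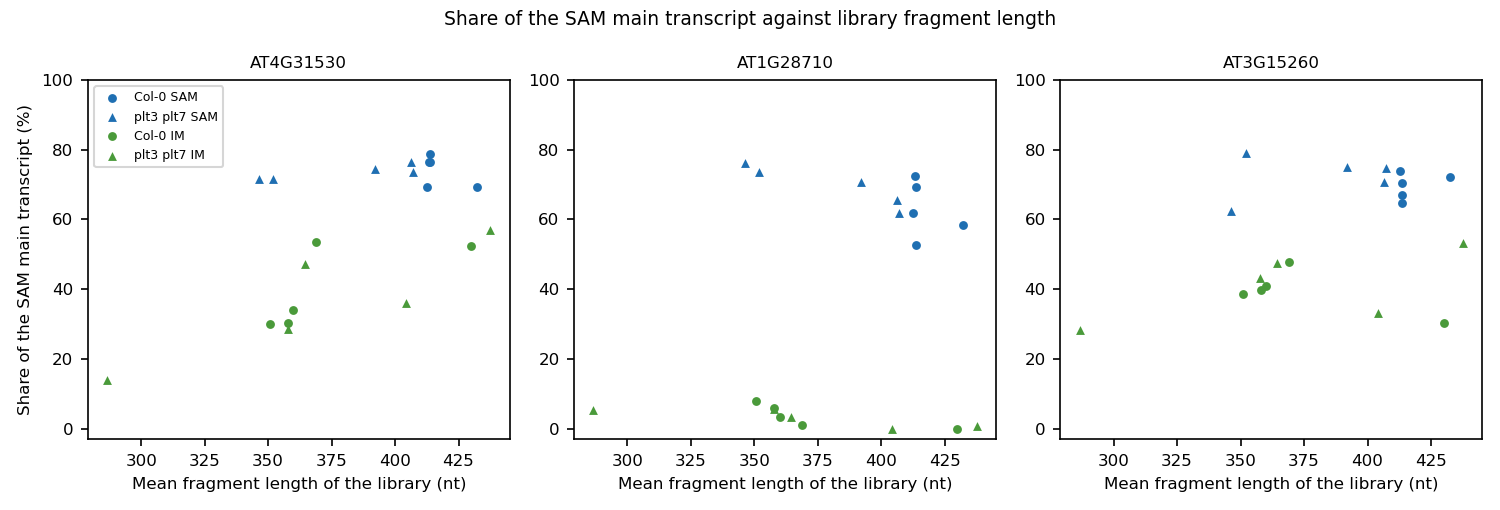
Share of the SAM main transcript (%) against the mean fragment length of the library (nt) at *AT4G31530*, *AT1G28710* and *AT3G15260*, with SAM in blue, IM in green, Col-0 as circles and *plt3 plt7* as triangles. At *AT4G31530* the IM library with the shortest fragments has a share of 14.1%, the lowest.

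Genes that act in splicing, 3′ end formation and NMD were compared between tissues in the 10 Col-0 libraries with DESeq2 and the same limits for a call. None of them is a switching locus, and their levels were no part of the rule. Of 45 such genes 9 were higher in the IM, 1 was lower and 35 were not called, whereas 57.1% of all genes tested were called and 26.7% were higher. The serine/arginine-rich (SR) proteins, which mark exons for the spliceosome, gave 7 of 20 higher, among them *RSZ22* (AT4G31580; 70.3 ± 5.21 TPM in the SAM, 127 ± 7.75 in the IM, log2 difference 0.56 ± 0.07, SE, n = 5; DESeq2 adjusted p = 7.74e-14). *GRP7* (AT2G21660), a clock-regulated RNA-binding protein that acts on splicing, was higher by 0.61 ± 0.10 (DESeq2 adjusted p = 8.65e-09), and *UPF3* (AT1G33980), an NMD factor, by 0.34 ± 0.05 (DESeq2 adjusted p = 5.97e-10). *PTB3* (AT1G43190), a polypyrimidine tract-binding protein, was lower by -0.34 ± 0.06 (DESeq2 adjusted p = 2.32e-08) but level in TPM, at 77.2 ± 5.72 and 76.5 ± 6.16. Of 11 genes of 3′ end formation DESeq2 called 0, since 8 had an adjusted p-value under 0.1 but none differed by over 25%, with a median log2 difference of 0.14 and a range of -0.26 to 0.31. The median difference in share of the 15 eligible SR genes was 0.0206, against 0.0175 for all eligible loci.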

How the data were processed

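The authors trimmed the reads with fastp 0.23.4 and assigned them to the TAIR10.1 cDNA sequences with kallisto 0.46.1, and no strand option for this step is given. The deposited tables hold, for each of 48266 transcripts of 27562 loci, estimated counts, TPM (which the authors' software scales by effective length and library total), length and effective length. Library totals were 24.8 to 114.9 M (megacounts) of estimated counts, and the SD over libraries includes counting error. All 40 pairs of replicates differed by more than sampling noise (chi-square per degree of freedom 6.53 to 50.0). The libraries are labelled as biological replicates and were harvested on separate days. The harvest groups of the labels (4 in the SAM, 3 in the IM) served as a covariate.

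Transcripts were matched by name to the TAIR10.1 annotation (48148 of 48149 nuclear ones, 47942 with the same length). Sequence shared between transcripts was counted in words of 31 bases. Shares were tested with limma 3.58.1, locus levels with DESeq2 1.42.0 (estimated counts summed and rounded, at least 10 in at least 5 libraries) and, as an alternative, edgeR 4.0.16, in R 4.3.3, with all p-values adjusted over all features tested. The tests within each tissue, but not the interaction, were also run on simulated data with known changes. Of 4-fold changes in the SAM main transcript 99.5% (SAM) and 100% (IM) were recovered, and of 2-fold changes in level 91.5% to 97.5%. The simulation had a fixed dispersion and no harvest effect, and smaller changes were not simulated. Other computations used Python 3.11.15 with scipy 1.17.1 (100000 permutations for correlations), and plots matplotlib 3.10.9. Mean fragment length was taken from the gap between the deposited length and effective length in transcripts no shorter than 2000 nt.

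The rule for named loci took the 15 members with the largest difference (here all 12), the member with the smallest p-value in each test, and the 2 loci just outside the limit. The regulators, neighbouring genes and *VHP2;2* were named after their values were seen. The members and the lists were chosen with earlier results of these data known. Alternatives to the rule, the pseudocount, the filter, the unit, the covariates and the tool were tried, and each library was left out in turn. The restriction to libraries in the fragment length range of both tissues was chosen after seeing the data.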

Additional observations from a re-analysis of the deposited data

Results flagged for a closer look

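Among 96 groups of 5 libraries (12 loci, 4 groups, the share of the SAM main transcript and the total of the locus), 5 held a library far from the other 4 by Dixon's criterion (gap over range above 0.71), where chance flags about 1 in 20. At *TAR2* the share in Col-0 SAM replicate 1 was 79.1%, with the others between 39.3% and 48.6%. The *TAR2* total was 27.0 TPM in Col-0 IM replicate 4, with the others between 31.5 and 32.5 TPM, and 38.2 TPM in *plt3 plt7* IM replicate 3, with the others between 29.7 and 32.1 TPM. At *AT4G22530* the share in *plt3 plt7* IM replicate 5 was 32.6%, with the others between 49.0% and 53.4%. At *CIPK3* the share in *plt3 plt7* IM replicate 4 was 4.62%, and the others were at most 8.19e-07%.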

How the results depend on the processing

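The rule selected 32 loci with a minimum difference of 0.2 in place of 0.3 and 35 with a minimum of 1 TPM in place of 5, and both sets held the 12. It selected 9 with 0.4 (without *AT3G15260*, *AT4G31530* and *HCF208*), 10 with a minimum of 10 TPM (without *CYP72A13* and *AT4G22530*), 10 with estimated counts (without *AT4G22530* and *AT4G31530*), and 12 with the median of the shares, of which 11 were the same (without *TAR2*). Leaving out each library in turn gave 11 to 14 loci. Under no alternative in which a member stayed eligible did its difference change sign. Nor did it move there by more than the SD of the member's shares over libraries, in the tissue with the larger SD. A member could still leave the set within that SD, as *AT4G31530* did with estimated counts. Of the 12 loci, 0 were called for a genotype difference in share under every alternative, and in locus level 0 to 1 in the SAM and 0 in the IM when each library was left out, the 1 being *AT1G28710* without Col-0 SAM replicate 2. Over all genes, 87 calls in the SAM became 5 with edgeR, 134 without harvest group and 15 to 172 without 1 library, and 297 calls in the IM became 146 with edgeR and 190 to 479 without 1 library. The causes were not tested. Of the 45 regulators 10 were called, 13 with edgeR, 14 with TMM scaling in DESeq2, 9 in the *plt3 plt7* libraries, and 9 to 13 without 1 library. The labels do not say what a replicate number marks, and in each of 4 checks at least 1 same-numbered pair correlated at under 0.1, so the numbers were not used as pairs. Deviations of same-numbered libraries correlated at -0.16 to 0.11 (share, SAM), -0.09 to 0.34 (share, IM), -0.14 to 0.29 (level, SAM) and 0.02 to 0.58 (level, IM). With the replicate number as a block 0 of 12 loci were called in any test, and the calls over all genes were 149 in the SAM and 328 in the IM. In the IM libraries AT2G26980.3 of *CIPK3* had 0 to 76.9 estimated counts, where the whole locus had 608 to 2284. AT5G58960.1 of *GIL1* had 0 to 710.3 there.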
